A study of Bos taurus and Bos grunniens x Bos taurus and Bos grunniens with 18 samples.

Results

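Cathepsins are the main proteases of the lysosome, and the mRNA of 10 of them, CTSA, CTSB, CTSC, CTSD, CTSF, CTSH, CTSK, CTSL, CTSS and CTSZ, was followed in testes of cattle-yaks, yaks and cattle. They were taken by gene symbol from the table of protein-coding mRNAs, where all 10 were found, each with 1 transcript, among 19994 genes. The table gave FPKM, fragments scaled to transcript length and to the mapped fragments of the library, for 9 RNA-seq libraries depleted of ribosomal RNA, each from the testis of 1 animal. The groups were 3 cattle-yaks, which are hybrids of the 2 species and are titled Dzo in the labels, 3 yaks and 3 cattle, all aged 4 years and from 1 cooperative, where they were castrated. The labels give no treatment, and they do not name the breeds or say which species was the dam of the hybrids. Male cattle-yaks are known to be sterile, and the series compares their testis with that of each parent species.

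Cathepsins are made as inactive precursors, sorted to the lysosome by receptors for mannose 6-phosphate, and cut to their active form in its acid interior. Most belong to the papain family of cysteine proteases and are held in check by cystatins, while CTSD is an aspartic protease and CTSA a serine carboxypeptidase. In the testis, Sertoli cells take up and digest the residual bodies and dying germ cells of the tubule, and in the rat they also secrete cathepsin L in a manner tied to the stage of the tubule. Macrophages, Leydig cells and stromal cells of the tissue between the tubules carry lysosomes as well, so the family is not a marker of a single cell type.

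Values below are FPKM per library or mean ± SD with n = 3 animals per group. Fold changes are on the log2(FPKM + 1) scale, with standard errors and Benjamini-Hochberg adjusted p from limma fitted to all 14091 genes at or above 1 FPKM in 3 or more of the libraries, and a gene is said to have risen or fallen where the adjusted p was under 0.05. The FPKM of a library added up to 408528 to 481551. The hybrid testis differed from both parents in most of the transcriptome, and the median log2 change over all genes tested was 0.50 relative to cattle and 0.54 relative to yak. Scaling by median ratios brought these medians to 0.01 and −0.02 and lowered the share of higher genes among those called to 49.0% and 48.5%, against 64.5% and 64.3% as deposited, so a change of a cathepsin is to be read against that shift. Listed genes of Sertoli cells, Leydig cells and spermatocytes had FPKM above 0 in all groups. As 15558 of 19994 genes were above 0 in every library, this does not identify the tissue. Summed FPKM of 14 spermatid genes was 45.0 to 146 in cattle-yak testes, 21432 to 23829 in yak testes and 16960 to 28895 in cattle testes.

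Cathepsins parted into those that were higher in the hybrid and a pair that was lower. Against cattle, 7 of the 10 rose and 2 fell, where 54.4% of all genes tested were called higher and 30.0% lower. Against yak, 6 of the 10 rose and 2 fell, beside 55.3% and 30.7% of all genes. Either way 9 of 10 and 8 of 10 were called, beside 84.4% and 86.0% of all genes. The libraries of the hybrid lay wholly above those of cattle for 7 cathepsins and wholly below for 2, where 55.4% and 30.7% of all genes did so, and relative to yak for 6 and 2, where 56.5% and 31.8% did. These shares are close to the background, so the numbers of cathepsins called do not set the family apart from other genes. The median log2 change of the 10 was 1.45 relative to cattle and 1.71 relative to yak, with single genes between −2.09 and 2.61 over both comparisons. Under median-ratio scaling CTSA, CTSB, CTSC, CTSD, CTSK and CTSS changed by 0.84 to 1.68 relative to cattle and 1.09 to 1.96 relative to yak. CTSF and CTSH then changed by −2.38 and −2.59 relative to cattle and by −2.43 each relative to yak. In bulk tissue a change in the number of cells of a type and a change in the RNA of each cell cannot be told apart.

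**Figure D1:**
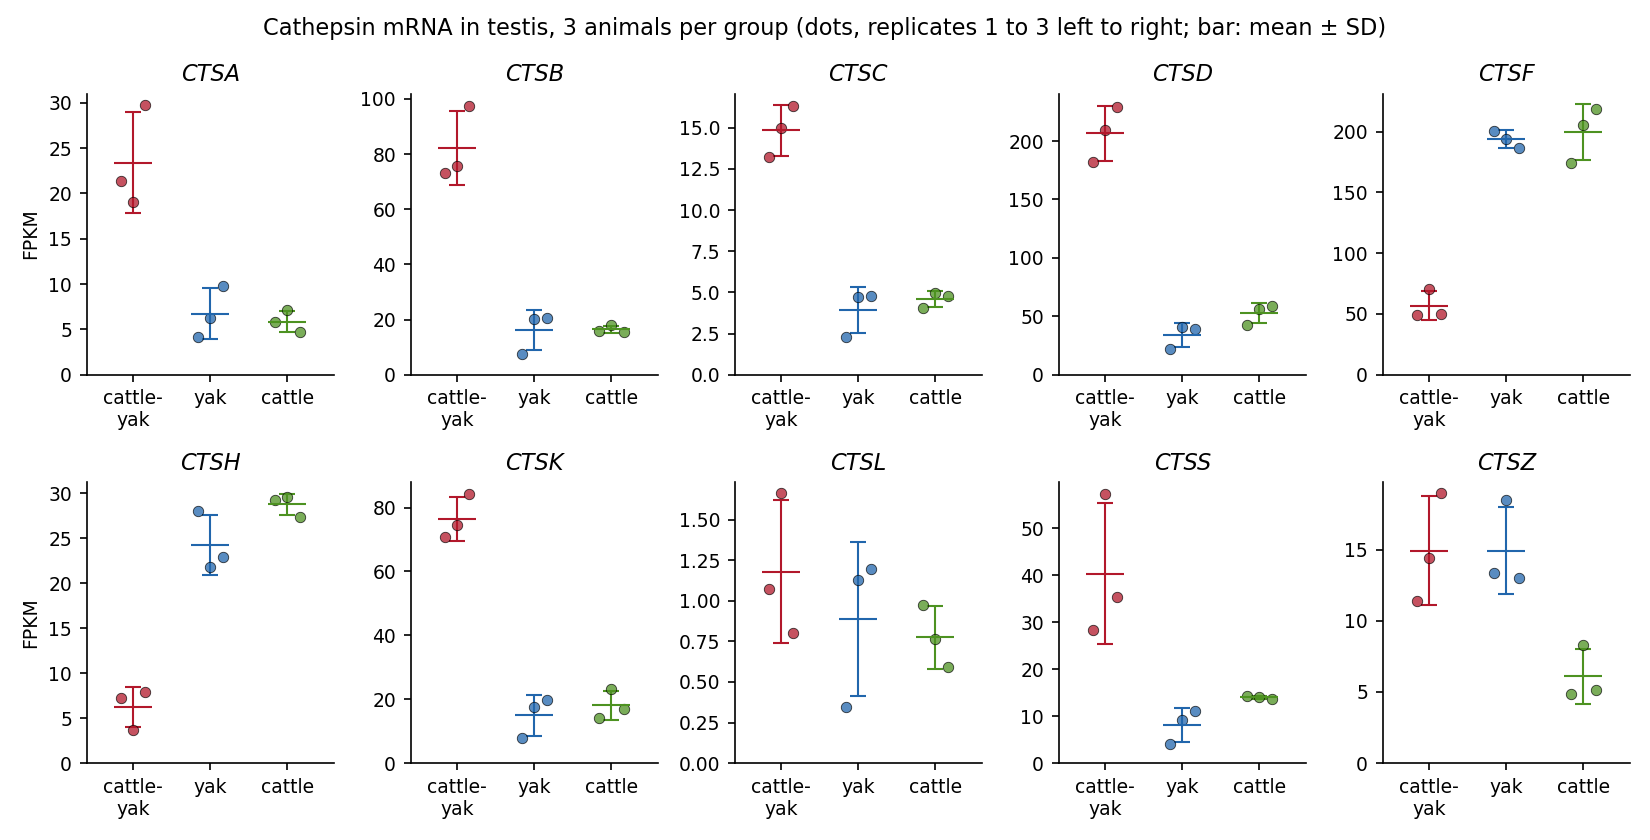
FPKM of the 10 cathepsins (y axes, linear, from 0) in the 3 libraries of cattle-yak, yak and cattle, with dots for animals and bars for mean ± SD. CTSA, CTSB, CTSC, CTSD, CTSK and CTSS lie higher in every cattle-yak library than in any parent library, CTSF and CTSH lie lower, CTSZ is low in cattle only, and CTSL is near 1 FPKM throughout.

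CTSD, CTSB and CTSK were the most abundant of the cathepsins that rose. CTSD (ENSBTAG00000007622), the aspartic endopeptidase, had 182, 209 and 229 FPKM in cattle-yak testes, 22.01, 40.5 and 39.4 FPKM in yak testes and 42.8, 55.8 and 58.8 FPKM in cattle testes. The lowest hybrid library thus lay above the highest parent library. Its log2 change was 1.97 ± 0.22 (SE) relative to cattle (limma, adjusted p = 1.3e-05) and 2.61 ± 0.22 relative to yak (adjusted p = 1.7e-06), which is 3.94-fold and 6.09-fold in mean FPKM.

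CTSB (ENSBTAG00000012442), a cysteine protease that acts both as an endopeptidase and as a carboxypeptidase, had 73.0, 75.7 and 97.5 FPKM in cattle-yak testes, 7.65, 20.2 and 20.6 FPKM in yak testes and 15.8, 17.99 and 15.6 FPKM in cattle testes. Its log2 change of 2.24 ± 0.30 (SE) was the highest of the 10 relative to cattle (limma, adjusted p = 4.7e-05), and relative to yak it was 2.38 ± 0.30 (adjusted p = 2.7e-05). CTSK (ENSBTAG00000021035), the collagen-degrading cathepsin best known from osteoclasts, had 70.8, 74.6 and 84.2 FPKM in cattle-yak testes, 7.76, 17.5 and 19.7 FPKM in yak testes and 14.2, 23.2 and 17.0 FPKM in cattle testes. It rose by 2.04 ± 0.29 on the log2 scale relative to cattle (limma, adjusted p = 7.0e-05) and by 2.37 ± 0.29 relative to yak (adjusted p = 2.1e-05). For both genes the hybrid libraries did not overlap those of either parent. The yak spread came mainly from replicate 1, the lowest yak library for both, and without it the log2 changes relative to yak were 1.94 for CTSB and 1.98 for CTSK.

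CTSA, CTSC and CTSS rose from lower levels. CTSA (ENSBTAG00000027337), the serine carboxypeptidase that also shields beta-galactosidase and neuraminidase in a lysosomal complex, had 21.4, 19.0 and 29.7 FPKM in cattle-yak testes, 4.16, 6.24 and 9.82 FPKM in yak testes and 5.78, 7.08 and 4.69 FPKM in cattle testes. It rose by 1.82 ± 0.26 (SE) on the log2 scale relative to cattle (limma, adjusted p = 7.8e-05) and by 1.70 ± 0.26 relative to yak (adjusted p = 0.00012). The enzymes of its complex, chosen after their values were seen, were called higher too, GLB1 at 60.4 ± 5.64 FPKM in cattle-yak, 15.8 ± 7.33 in yak and 11.53 ± 2.74 in cattle, and NEU1 at 12.2 ± 1.36, 6.12 ± 1.298 and 6.76 ± 0.73 FPKM in the same groups. The NEU1 calls were lost under median-ratio scaling (limma, adjusted p = 0.144 relative to cattle and 0.0723 relative to yak).

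CTSC (ENSBTAG00000011100), a dipeptidyl peptidase that activates the serine proteases of leucocyte granules, had 13.2, 15.0 and 16.3 FPKM in cattle-yak testes, 2.31, 4.71 and 4.76 FPKM in yak testes and 4.02, 4.96 and 4.78 FPKM in cattle testes. Its changes on that scale came to 1.503 ± 0.21 (SE) relative to cattle (limma, adjusted p = 5.7e-05) and 1.73 ± 0.21 relative to yak (adjusted p = 1.8e-05), with no overlap of libraries. The leucocyte granule proteins it is linked to were measured at low levels. Of 10 listed, 8 were in the table, with a summed FPKM of 1.98 to 3.41 in cattle-yak, 4.01 to 4.72 in yak and 3.95 to 6.56 in cattle, and 2 of their gene IDs were tested. MPO, a peroxidase of neutrophil granules, fell to 0.05 ± 0.01 FPKM in cattle-yak, against 1.38 ± 0.81 in yak and 2.98 ± 0.21 in cattle. GZMB, a granzyme of killer lymphocytes, was listed at 0 in all 3 cattle-yak libraries, at 1.48, 1.35 and 1.51 FPKM in yak testes and at 0.82, 0 and 0.07 FPKM in cattle testes. These values are of the tested GZMB gene ID, and another with the same symbol was also at 0 in all 3 cattle-yak libraries. GZMB was not called relative to cattle (limma, adjusted p = 0.149), though it was called lower without cattle replicate 2 (adjusted p = 0.0463).

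CTSS (ENSBTAG00000017135), which trims the invariant chain of MHC class II molecules in antigen-presenting cells, had 28.4, 57.2 and 35.4 FPKM in cattle-yak testes, 4.15, 9.22 and 11.2 FPKM in yak testes and 14.3, 14.0 and 13.8 FPKM in cattle testes. Cattle-yak replicate 2 held the highest value, and every hybrid library lay above every parent library. The log2 change was 1.40 ± 0.31 (SE) relative to cattle (limma, adjusted p = 0.0017) and 2.20 ± 0.31 relative to yak (adjusted p = 6.5e-05). Without cattle-yak replicate 2 it was 1.12 and 1.92. Median-ratio scaling lowered the value relative to cattle to 0.84 (limma, adjusted p = 0.0219). In the RefSeq gene order of cattle (ARS-UCD2.0) CTSK and CTSS are separated by 1 protein-coding gene, the closest pair of the family.

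CTSF and CTSH went the other way. CTSF (ENSBTAG00000010994), a cysteine protease with a long propeptide that holds a cystatin-like domain, had 49.3, 70.7 and 50.3 FPKM in cattle-yak testes, 201, 194 and 186 FPKM in yak testes and 175, 206 and 219 FPKM in cattle testes. It fell by 1.81 on the log2 scale (SE 0.15) relative to cattle (limma, adjusted p = 1.7e-06) and by 1.77 (SE 0.15) relative to yak (adjusted p = 1.6e-06), the smallest adjusted p of the 10 relative to cattle. CTSH (ENSBTAG00000010992), an aminopeptidase, had 7.21, 3.70 and 7.87 FPKM in cattle-yak testes, 28.1, 21.8 and 23.0 FPKM in yak testes and 29.2, 29.7 and 27.4 FPKM in cattle testes. It fell by 2.09 on the log2 scale (SE 0.21) relative to cattle (limma, adjusted p = 7.3e-06) and by 1.85 (SE 0.21) relative to yak (adjusted p = 1.4e-05). For both genes the highest hybrid library lay below the lowest parent library. The spermatid list fell too, 14 of 14 genes against each parent, where 30.0% and 30.7% of all genes tested were called lower. Its median log2 changes were larger, at −6.42 relative to cattle and −6.36 relative to yak. The part of spermatids in the values of CTSF and CTSH was not tested. The hybrid libraries did not rank alike in the pair, since replicate 2 had the most CTSF and the least CTSH.

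CTSZ and CTSL did not follow either pattern. CTSZ (ENSBTAG00000018784), a carboxypeptidase also named cathepsin X, had 11.4, 14.4 and 19.0 FPKM in cattle-yak testes, 13.3, 18.4 and 13.0 FPKM in yak testes and 4.87, 8.32 and 5.13 FPKM in cattle testes. The hybrid and yak libraries overlapped, and all 6 lay above the cattle libraries. CTSZ rose by 1.17 ± 0.23 (SE) on the log2 scale in cattle-yak against cattle (limma, adjusted p = 0.00066). Against yak its log2 change was −0.01, with a 95% interval of −0.52 to 0.49 (adjusted p = 0.963). Under median-ratio scaling it was called lower in cattle-yak than in yak, at −0.63 (limma, adjusted p = 0.0201), and it remained called higher relative to cattle, at 0.64 (adjusted p = 0.0189).

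CTSL (ENSBTAG00000000720), a broad endopeptidase, had 1.07, 1.66 and 0.80 FPKM in cattle-yak testes, 0.34, 1.13 and 1.20 FPKM in yak testes and 0.98, 0.76 and 0.59 FPKM in cattle testes. All groups overlapped. Its log2 change had a 95% interval of −0.19 to 0.75 relative to cattle (limma, adjusted p = 0.233) and of −0.25 to 0.69 relative to yak (adjusted p = 0.341). At about 1 FPKM the added pseudocount of 1 shrinks any change of this gene.

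**Figure D2:**
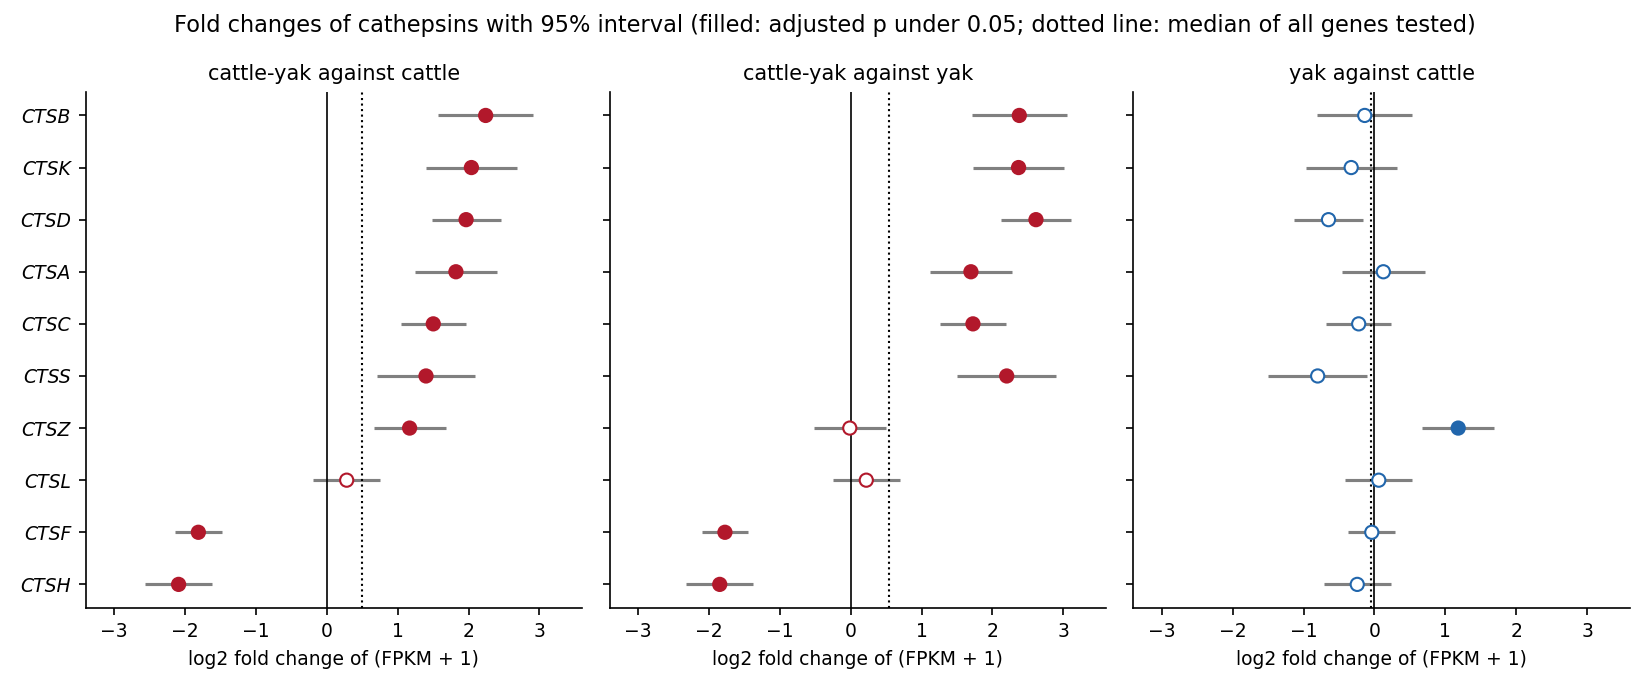
Log2 fold change of (FPKM + 1) with its 95% interval (x axis) for each cathepsin in the hybrid against each parent and yak against cattle, with filled points for an adjusted p under 0.05 and a dotted line at the median of all genes tested. The hybrid comparisons hold values from −2.09 to 2.61, while between the parent species CTSZ is the only filled point.

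Between the parent species, CTSZ was the only cathepsin called. The same build, UMD3.1, was used for all 3 groups, and its part in differences between the species was not tested. It rose by 1.18 ± 0.23 (SE) on the log2 scale in yak against cattle (limma, adjusted p = 0.0057), or 2.45-fold in mean FPKM, and stayed called without any single library (adjusted p of 0.00364 to 0.0256). Of all genes tested 19.1% were called in this contrast, 8.36% higher and 10.7% lower, and 16.7% had all yak libraries above all cattle libraries. Median-ratio scaling raised the share of higher genes among those called to 55.5%, against 43.8% as deposited. CTSD and CTSS were lower in every yak library than in any cattle library, at log2 changes of −0.65 (limma, adjusted p = 0.0653) and −0.80 (adjusted p = 0.102), and did not pass the test. Such a separation downwards was found in 23.2% of all genes. CTSD was called lower in yak under quantile normalisation (limma, adjusted p = 0.0365). CTSF had the smallest log2(FPKM + 1) change of the 10, −0.04, at 194 ± 7.28 FPKM in yak and 200 ± 22.8 FPKM in cattle, with a 95% interval of −0.37 to 0.29 for its log2 change.

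The opposite moves changed which cathepsin mRNA was the most abundant, and FPKM, being per length, allows this comparison between genes. CTSF stood first in all 6 parent libraries, with 56.6 to 69.1% of the summed FPKM of the 10 genes in yak and 56.0 to 59.7% in cattle. In cattle-yak it supplied 8.83 to 13.1%, and CTSD stood first with 38.7 to 40.2%, against 7.58 to 12.1% in yak and 14.0 to 16.0% in cattle. CTSB and CTSK came next in the hybrid, at 14.0 to 17.1% and 13.8 to 15.5%, and their libraries overlapped each other. In yak they supplied 2.63 to 6.27% and 2.67 to 5.98%, and in cattle 4.25 to 5.16% and 4.64 to 6.30%. The 10 genes together summed to 458, 541 and 570 FPKM in cattle-yak testes, 290, 334 and 329 FPKM in yak testes and 307, 367 and 367 FPKM in cattle testes, so the total differed less than its makeup.

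In the order of mean levels, cattle-yak ran from CTSD through CTSB, CTSK, CTSF, CTSS, CTSA, CTSZ, CTSC and CTSH to CTSL. Neighbours whose libraries overlapped were CTSB with CTSK, CTSF with CTSS, CTSS with CTSA, and CTSZ with CTSC. Cattle ran from CTSF through CTSD, CTSH, CTSK, CTSB, CTSS, CTSZ, CTSA and CTSC to CTSL, with overlap between CTSK and CTSB, CTSZ and CTSA, and CTSA and CTSC. Yak ran from CTSF through CTSD, CTSH, CTSB, CTSK, CTSZ, CTSS, CTSA and CTSC to CTSL, where CTSD overlapped CTSH, CTSB overlapped CTSK, CTSK overlapped CTSZ, CTSS overlapped CTSA and CTSA overlapped CTSC. CTSL was last in every group and did not overlap its neighbour in any.

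**Figure D3:**
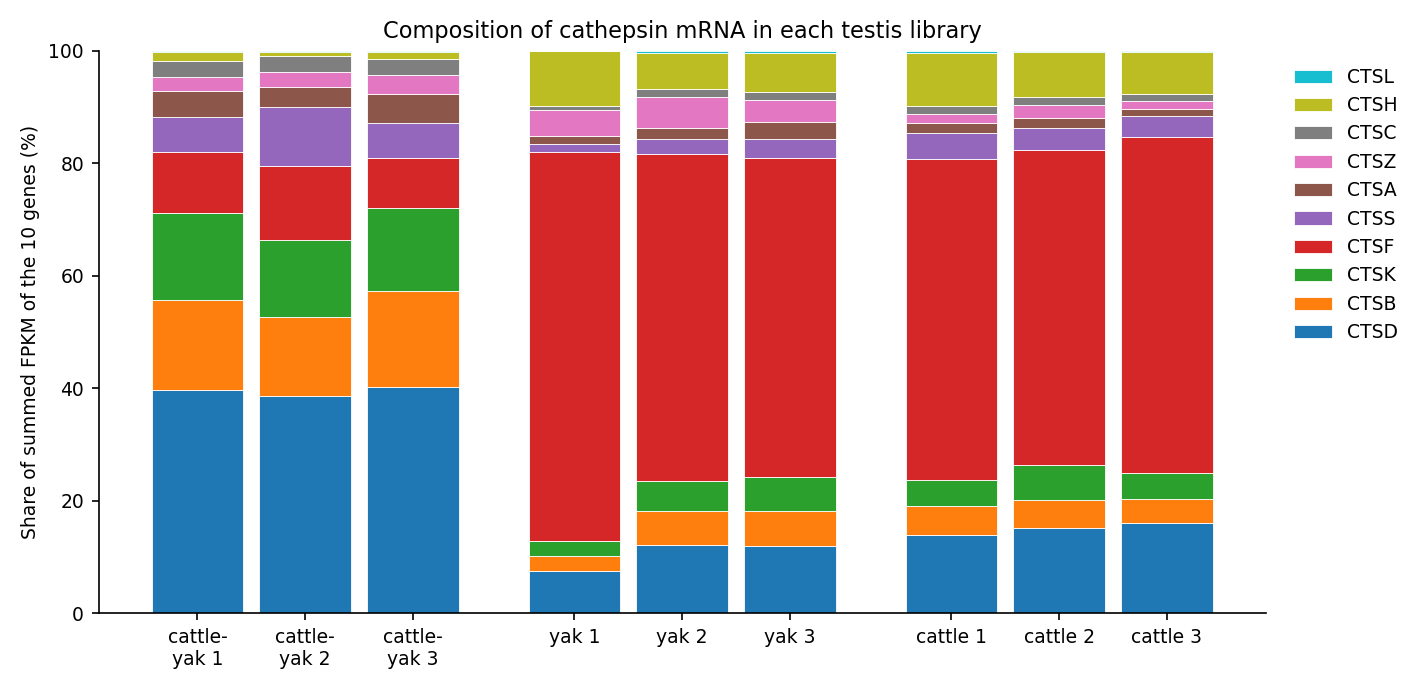
Share of each cathepsin in the summed FPKM of the 10 genes (y axis, percent) for the 9 libraries (x axis). CTSF fills 56.0 to 69.1% of each parent library and 8.83 to 13.1% of each cattle-yak library, where CTSD is largest at 38.7 to 40.2%.

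Of 5 cathepsins outside the 10 that were looked up, 3 were in the table. CTSV is the nearest relative of CTSL, and the RefSeq gene table of cattle (ARS-UCD2.0) gives CTSL, CTSL1 and CTSL2 as synonyms of CTSV. It gives CTSL1 as a synonym of CTSL as well, so reports on bovine cathepsin L may refer to CTSV. CTSV (ENSBTAG00000017077) had 59.8, 80.7 and 65.0 FPKM in cattle-yak testes, 22.7, 26.2 and 30.3 FPKM in yak testes and 35.5, 32.8 and 25.7 FPKM in cattle testes, far above CTSL in each library. It rose by 1.11 ± 0.16 (SE) on the log2 scale relative to cattle (limma, adjusted p = 7.7e-05) and by 1.34 ± 0.16 relative to yak (adjusted p = 1.7e-05). Its FPKM was split over 2 transcripts in shares that varied widely between animals. ENSBTAT00000022710 took 37.1 to 43.6% of it in cattle-yak, 13.7 to 53.4% in yak and 24.9 to 81.5% in cattle. With the more abundant transcript alone the log2 change relative to yak was 1.13 and no longer passed the test (limma, adjusted p = 0.0592). CTSO, a less studied cysteine cathepsin, rose to 12.1 ± 1.21 FPKM in cattle-yak, against 1.98 ± 1.09 in yak and 3.96 ± 0.92 in cattle. CTSW, known from killer lymphocytes, was at 8.98 ± 1.32 FPKM in cattle-yak, 2.85 ± 1.74 in yak and 6.73 ± 2.43 in cattle, and rose relative to yak (limma, adjusted p = 0.0028) while its change relative to cattle was not called (adjusted p = 0.309).

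Inhibitors of cathepsins held genes that moved in either direction. Of 12 tested gene IDs among cystatins and other listed inhibitors, 7 rose and 5 fell relative to cattle, and 7 rose and 3 fell relative to yak, with medians of 1.26 and 1.06. Over all genes tested, 54.4% and 55.3% were called higher and 30.0% and 30.7% lower. CST3, the secreted cystatin C, rose to 1065, 1131 and 1195 FPKM in cattle-yak testes, against 158, 243 and 370 in yak testes and 244, 278 and 255 in cattle testes. Its log2 change was 2.12 relative to cattle (limma, adjusted p = 1.8e-05) and 2.22 relative to yak (adjusted p = 1.1e-05). Each hybrid library held more CST3 than the summed FPKM of its 10 cathepsins. Yak replicate 3 did so too (370 against 329 FPKM), while the other parent libraries held less.

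The cystatins that fell included CSTL1, with 0.19, 0.81 and 0.13 FPKM in cattle-yak testes, 180, 97.8 and 108 FPKM in yak testes and 121, 102 and 97.0 FPKM in cattle testes. CST8, a cystatin of the reproductive tract and germ cells, was listed at 0, 0.34 and 0 FPKM in cattle-yak testes and stood between 35.5 and 57.6 FPKM in the parents. CST6, cystatin M, fell to 13.0 ± 3.43 FPKM in cattle-yak, against 61.4 ± 9.60 in yak and 33.2 ± 16.5 in cattle. SERPINB6, an inhibitor of granule proteases, fell relative to cattle, to 50.03 ± 3.02 FPKM, where yak had 56.5 ± 4.33 and cattle 134 ± 19.1, and was not called relative to yak (limma, adjusted p = 0.208). Median-ratio scaling called it lower relative to yak as well (adjusted p = 0.000141).

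Genes that sort lysosomal enzymes or ready them for activity were tested in 20 cases. Of these 16 rose and 2 fell relative to cattle and 15 rose and 2 fell relative to yak, with medians of 1.03 and 1.08, where 54.4% and 55.3% of all genes tested were called higher. PSAP, the precursor of the saposins and a ligand of the sorting receptor sortilin, rose to 550 ± 39.2 FPKM in cattle-yak, against 88.6 ± 38.4 in yak and 121 ± 6.03 in cattle. SORT1, sortilin itself, was at 94.5 ± 10.6, 95.05 ± 3.26 and 81.3 ± 5.48 FPKM in the same groups and was not called (limma, adjusted p = 0.0855 relative to cattle and 0.905 relative to yak), though median-ratio scaling called it lower against both and quantile normalisation higher against both. Median-ratio scaling brought the number of sorting genes called lower to 4 relative to cattle and 5 relative to yak. VPS26A, a retromer subunit that returns sorting receptors to the Golgi, and GGA1, an adaptor that carries them from it, were the genes that fell. VPS26A was at 84.4 ± 4.49 FPKM in cattle-yak, 188 ± 5.21 in yak and 171 ± 15.0 in cattle. LGMN, the asparaginyl protease that trims cathepsin precursors (chosen after its values were seen), had 11.1, 21.05 and 11.3 FPKM in cattle-yak testes, 1.302, 1.90 and 2.46 FPKM in yak testes and 4.49, 5.59 and 5.98 FPKM in cattle testes, with its highest value in the hybrid library that was also highest in CTSS.

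Other hydrolases of the lysosome were counted next. Of 34 tested, 27 rose and 2 fell relative to cattle and 29 rose and 3 fell relative to yak, with medians of 1.11 and 1.52. Median-ratio scaling called 5 hydrolases lower in each contrast. As deposited, 54.4% and 55.3% of all genes tested were called higher relative to cattle and yak, and 30.0% and 30.7% lower. Counts of each list below are to be read beside these shares. MANBA, beta-mannosidase, rose to 107 ± 22.4 FPKM in cattle-yak, against 16.2 ± 5.56 in yak and 23.3 ± 1.37 in cattle. AGA, which cleaves the sugar link to asparagine, was at 65.3 ± 3.01, 59.7 ± 4.27 and 57.5 ± 9.03 FPKM in these groups, and HEXA, a hexosaminidase chain, was at 49.0 ± 14.3, 62.1 ± 3.56 and 51.6 ± 9.07 FPKM. Neither was called in either comparison, and median-ratio scaling called both lower in each. Quantile normalisation called AGA higher in each, and HEXA was called lower relative to yak without cattle-yak replicate 3 (limma, adjusted p = 0.0111). The genes that fell against each parent were GAA, the acid alpha-glucosidase, and ARSA, arylsulfatase A, at 1.44 ± 0.31 and 5.30 ± 0.24 FPKM in cattle-yak. In yak they stood at 3.48 ± 0.39 and 10.3 ± 0.25 FPKM and in cattle at 5.36 ± 0.97 and 10.98 ± 1.98 FPKM.

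Among 29 genes of the lysosomal membrane and its proton pump, 20 rose and 5 fell relative to cattle and 19 rose and 6 fell relative to yak, with medians of 0.81 and 1.03. After median-ratio scaling 12 were higher and 9 lower relative to cattle, and 10 were lower relative to yak. The count of 5 lower was 3 under equal-sum scaling, without cattle replicate 2 or without cattle replicate 3. LAPTM4A, a small membrane protein of late endosomes, was at 278 ± 7.24 FPKM in cattle-yak, 240 ± 13.7 in yak and 232 ± 3.35 in cattle, and its small rise relative to cattle turned to a fall under median-ratio scaling (log2 change −0.32, limma, adjusted p = 0.0198). That call was also lost without cattle-yak replicate 1 or 2 or any 1 cattle library (adjusted p of 0.0546 to 0.0745). Pump subunits differed in direction. ATP6V1G1 rose to 264 ± 16.4 FPKM in cattle-yak, against 173 ± 7.51 in yak and 158 ± 8.89 in cattle, a call that median-ratio scaling ended (adjusted p = 0.624 relative to yak and 0.17 relative to cattle). ATP6V1F fell to 71.6 ± 4.24 FPKM, against 244 ± 32.7 in yak and 180 ± 12.0 in cattle, and ATP6V1D and ATP6V1C1 fell as well, as did CLN3, the membrane protein of juvenile Batten disease. The call of ATP6V1C1 relative to cattle was lost without cattle-yak replicate 1 or 3 or cattle replicate 2 or 3 (adjusted p of 0.0563 to 0.0888). Equal-sum scaling and quantile normalisation ended it too (limma, adjusted p = 0.0684 and 0.067). LAMP1, a glycoprotein of the lysosomal membrane, was at 110 ± 1.55, 131 ± 11.2 and 136 ± 13.5 FPKM in cattle-yak, yak and cattle. Its small fall was called (limma, adjusted p = 0.0214 relative to cattle and 0.047 relative to yak), and neither call held under quantile normalisation, which turned the direction relative to yak. Equal-sum scaling ended both calls as well (limma, adjusted p = 0.0943 relative to cattle and 0.304 relative to yak). The calls were lost without cattle replicate 2 or 3 (adjusted p of 0.0704 and 0.0714 relative to cattle) and, relative to yak, without cattle replicate 2, yak replicate 1 or 3 or any 1 cattle-yak library (0.0603 to 0.132).

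Regulators of lysosomal genes were measured at low levels, with 6 of 8 listed genes tested, of which 3 rose and 1 fell against each parent. Over all genes tested 54.4% and 55.3% were called higher, so these counts do not set the regulators apart. TFE3, a transcription factor that binds the promoters of lysosomal genes, rose to 21.98 ± 4.26 FPKM in cattle-yak, against 5.12 ± 1.22 in yak and 6.19 ± 0.52 in cattle. TFEB, its best known relative (chosen after its values were seen), rose to 3.32 ± 0.17 FPKM, against 0.55 ± 0.21 in yak and 0.78 ± 0.05 in cattle. MTOR, the kinase that keeps these factors out of the nucleus, fell to 14.1 ± 2.35 FPKM, against 32.8 ± 1.24 in yak and 26.1 ± 1.21 in cattle. Median-ratio scaling gave 3 regulators lower relative to cattle and 2 relative to yak.

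**Figure D4:**
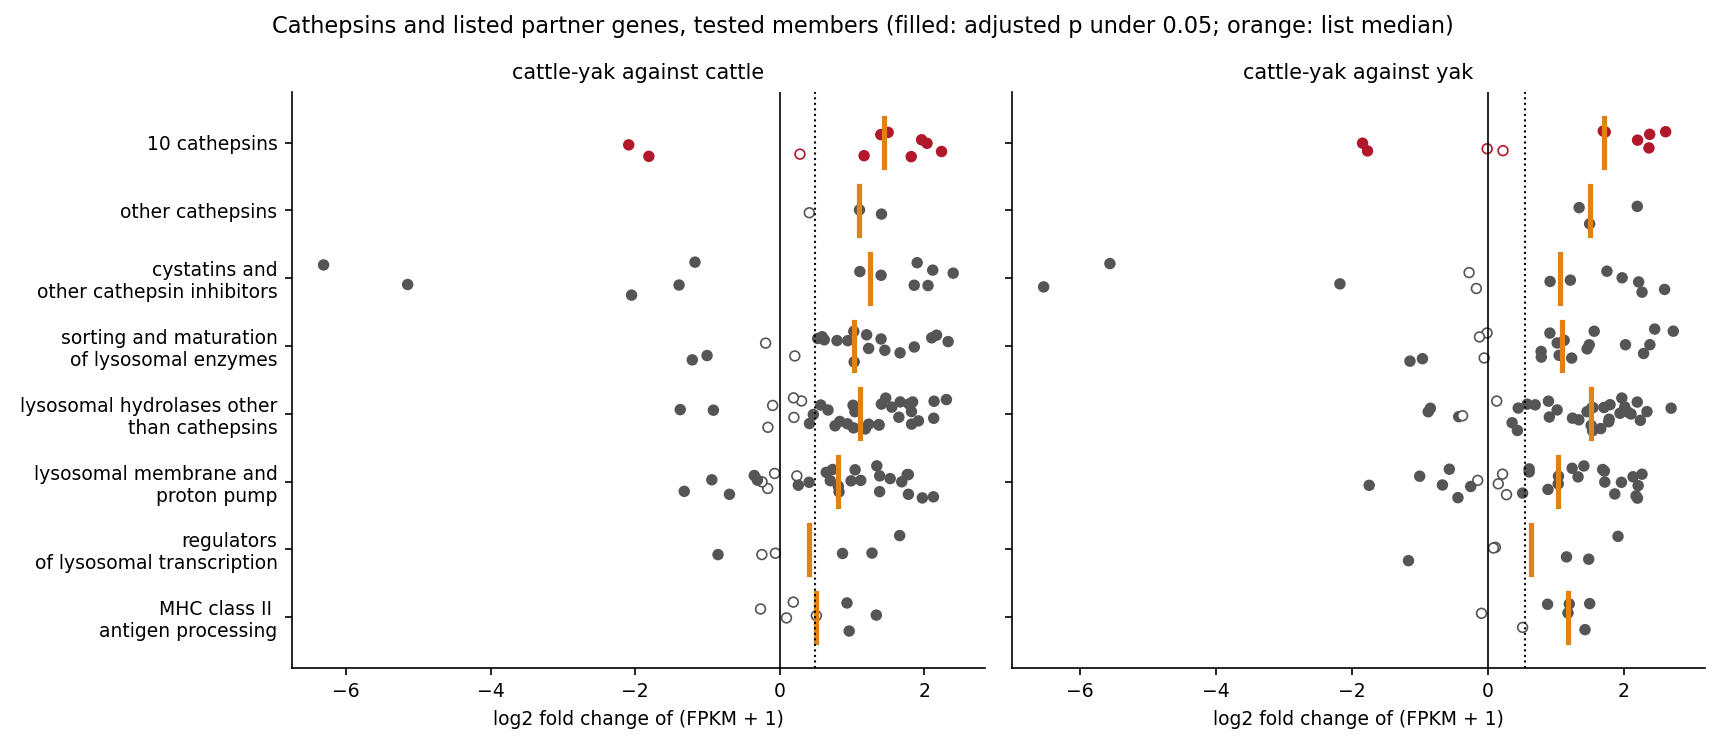
Log2 fold change of (FPKM + 1) (x axes) for the 10 cathepsins and for each tested gene of 7 partner lists (rows) in cattle-yak against cattle and relative to yak, with filled points for an adjusted p under 0.05, an orange bar at the median of each list and a dotted line at the median of all genes. The 10 cathepsins have medians of 1.45 and 1.71, the other lysosomal hydrolases 1.11 and 1.52, and 2 cystatins lie below −5.

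MHC class II genes, whose products CTSS serves, were tested in 7 cases out of 13 measured. Of these 3 rose in the cattle contrast and 5 in the yak contrast, and none fell, while median-ratio scaling left 1 and 3 higher. As deposited, 54.4% and 55.3% of all genes tested were called higher in these contrasts. IFI30, a thiol reductase of antigen processing (chosen after its values were seen), rose relative to yak by 1.20 on the log2 scale (limma, adjusted p = 0.00331). Median-ratio scaling ended that call (adjusted p = 0.0536). Relative to cattle IFI30 was not called, at −0.26 (limma, adjusted p = 0.424), and its change was 0.01 without cattle replicate 1. It was called lower relative to cattle only under median-ratio scaling (adjusted p = 0.0446) and without cattle replicate 3 (adjusted p = 0.037). BOLA-DRA, a class II chain, rose to 60.7 ± 11.8 FPKM in cattle-yak, against 21.6 ± 8.04 in yak and 30.6 ± 5.75 in cattle. CD74, the invariant chain, had 40.2, 72.9 and 45.8 FPKM in cattle-yak testes, 10.8, 27.4 and 20.7 FPKM in yak testes and 30.5, 26.6 and 22.5 FPKM in cattle testes. The cattle contrast no longer passed without cattle-yak replicate 2 (limma, adjusted p = 0.0661) or cattle replicate 3 (adjusted p = 0.0554). Median-ratio scaling ended the calls of CD74 and BOLA-DRA relative to cattle (adjusted p = 0.258 and 0.141). BOLA-DMB, which loads peptides onto class II molecules, was at 8.31 ± 1.64, 4.17 ± 1.46 and 5.59 ± 1.55 FPKM in cattle-yak, yak and cattle and rose relative to yak (limma, adjusted p = 0.0068), a call lost under median-ratio scaling (adjusted p = 0.241). Relative to cattle its adjusted p was 0.0779.

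Cattle-yak replicate 2, highest in CTSS, LGMN and CD74, was also highest in complement genes of macrophages. C1QA, a chain of complement C1q, had 16.6, 95.8 and 23.4 FPKM in cattle-yak testes, 2.46, 5.83 and 12.4 FPKM in yak testes and 15.5, 13.5 and 9.93 FPKM in cattle testes. It rose relative to yak (limma, adjusted p = 0.0041) and was not called relative to cattle (adjusted p = 0.0632). C1QB and C1QC (chosen after their values were seen) reached 61.1 and 52.1 FPKM in that library and at most 11.7 FPKM in any other. MRC1, the mannose receptor of macrophages, did not share this pattern, at 125, 105 and 112 FPKM in cattle-yak testes, 20.1, 38.0 and 36.1 FPKM in yak testes and 22.7, 25.6 and 29.4 FPKM in cattle testes. Of 16 tested macrophage genes 7 rose and 3 fell relative to cattle, and 13 rose and 3 fell relative to yak, and no listed gene was at 0 throughout a group. Median-ratio scaling left 8 macrophage genes higher relative to yak and brought 5 lower relative to cattle. As deposited, 54.4% and 55.3% of all genes tested were called higher relative to cattle and yak, and 30.0% and 30.7% lower. AIF1, which binds calcium, fell to 7.95 ± 3.04 FPKM in cattle-yak, against 131 ± 15.0 in yak and 107 ± 1.71 in cattle, and made up 54.6 to 75.7% of the summed list in the parents. Summed over the list, FPKM was 194 to 376 in cattle-yak, 187 to 211 in yak and 189 to 196 in cattle, and without AIF1 it was 189 to 365, 45.3 to 82.9 and 82.1 to 88.9. The part of these genes in the CTSS values was not tested.

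Yak replicate 1 was the lowest of the 9 libraries in CTSA, CTSB, CTSC, CTSD, CTSK, CTSL and CTSS, and it was also lowest in the summed markers of Sertoli cells, smooth muscle and fibroblasts. Its summed FPKM was 34.5 for 8 smooth muscle genes of the tubule wall, where the other yak libraries had 77.2 and 85.2, and 12.0 for 8 fibroblast and matrix genes, where they had 38.8 and 47.8. For 16 gene IDs of Sertoli cells it was 431, where they had 606 and 616. The T and NK cell genes summed to 79.5 in yak replicate 1, where the other yak libraries had 70.4 and 25.1, and CD247, a signalling chain of the T cell receptor (chosen after its values were seen), made up 67.7, 49.7 and 1.37 FPKM of these sums. CTSF, CTSH and CTSZ were not lowest there. Every cathepsin call relative to yak was as reported when this library was left out.

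Somatic markers were higher in the hybrid together with the cathepsins that rose. All 15 tested Sertoli cell gene IDs rose against each parent, with medians of 1.78 and 1.99 and a summed FPKM of 1991 to 2370 in cattle-yak, 431 to 616 in yak and 450 to 582 in cattle. CLU, the secreted chaperone clusterin, CLDN11, a tight junction protein, and INHA, an inhibin chain, led that list. All 10 tested Leydig cell genes rose, with medians of 2.66 and 2.28, summing to 1650 to 2285 FPKM in cattle-yak, 285 to 624 in yak and 257 to 404 in cattle. INSL3, a peptide hormone, CYP17A1, an androgen synthesis enzyme, and STAR, which imports cholesterol, were its most abundant genes. All 8 smooth muscle genes rose and all 8 fibroblast and matrix genes rose against each parent, the first summing to 273 to 329 FPKM in cattle-yak, 34.5 to 85.2 in yak and 78.2 to 122 in cattle, the second to 155 to 217, 12.0 to 47.8 and 60.4 to 68.1. After median-ratio scaling 5 of the 8 fibroblast and matrix genes were called higher relative to cattle. The part of these cells in the levels of CTSA, CTSB, CTSC, CTSD, CTSK and CTSS was not tested.

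Other marker lists were smaller or mixed, beside 54.4% and 55.3% of all genes called higher relative to cattle and yak and 30.0% and 30.7% lower. Among spermatogonium genes 10 were tested, and 9 were called higher and 1 lower in each contrast, with sums of 414 to 526 FPKM in cattle-yak, 122 to 160 in yak and 171 to 195 in cattle, and NANOS2 was at 0 in yak. The 1 lower relative to yak was 0 without cattle-yak replicate 2, yak replicate 1 or yak replicate 3. Of 12 spermatocyte genes 2 rose and 5 fell in each contrast, summing to 527 to 839, 1008 to 1201 and 1061 to 1124 FPKM. Without cattle-yak replicate 3 the count higher relative to yak was 4, and median-ratio scaling gave 8 lower relative to cattle. T and NK cell genes, which include the cells in which CTSW is known, summed to 41.2 to 43.3 FPKM in cattle-yak. In yak they summed to 25.1 to 79.5 FPKM, largely CD247 in replicates 1 and 2 as given above. In cattle the sum was 17.1 to 24.8 FPKM, with KLRB1 at 0. Of 10 tested, 5 rose relative to cattle, while 7 rose and 1 fell relative to yak. The count of 5 was 1 after median-ratio scaling, 3 without cattle-yak replicate 1 and 2 without cattle replicate 3. Endothelial genes summed to 29.5 to 36.9, 18.9 to 22.2 and 9.71 to 16.85 FPKM, with 7 and 6 of 8 called higher and 1 lower in each comparison. The 1 lower relative to cattle was 0 without cattle replicate 2 and without any 1 cattle-yak library. Epithelial genes of epididymis and rete testis summed to 123 to 160, 136 to 151 and 103 to 142 FPKM, with 3 of 4 tested called higher, and CRISP1, an epididymal protein, was at 0 in both parents. Among 11 housekeeping genes 9 were called higher and 1 lower relative to cattle and 8 and 1 relative to yak, with median log2 changes of 1.09 and 1.96. The first median exceeds those of the sorting and the membrane list, and the second exceeds those of all 4 partner lists given medians above and of the 10 cathepsins.

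**Figure D5:**
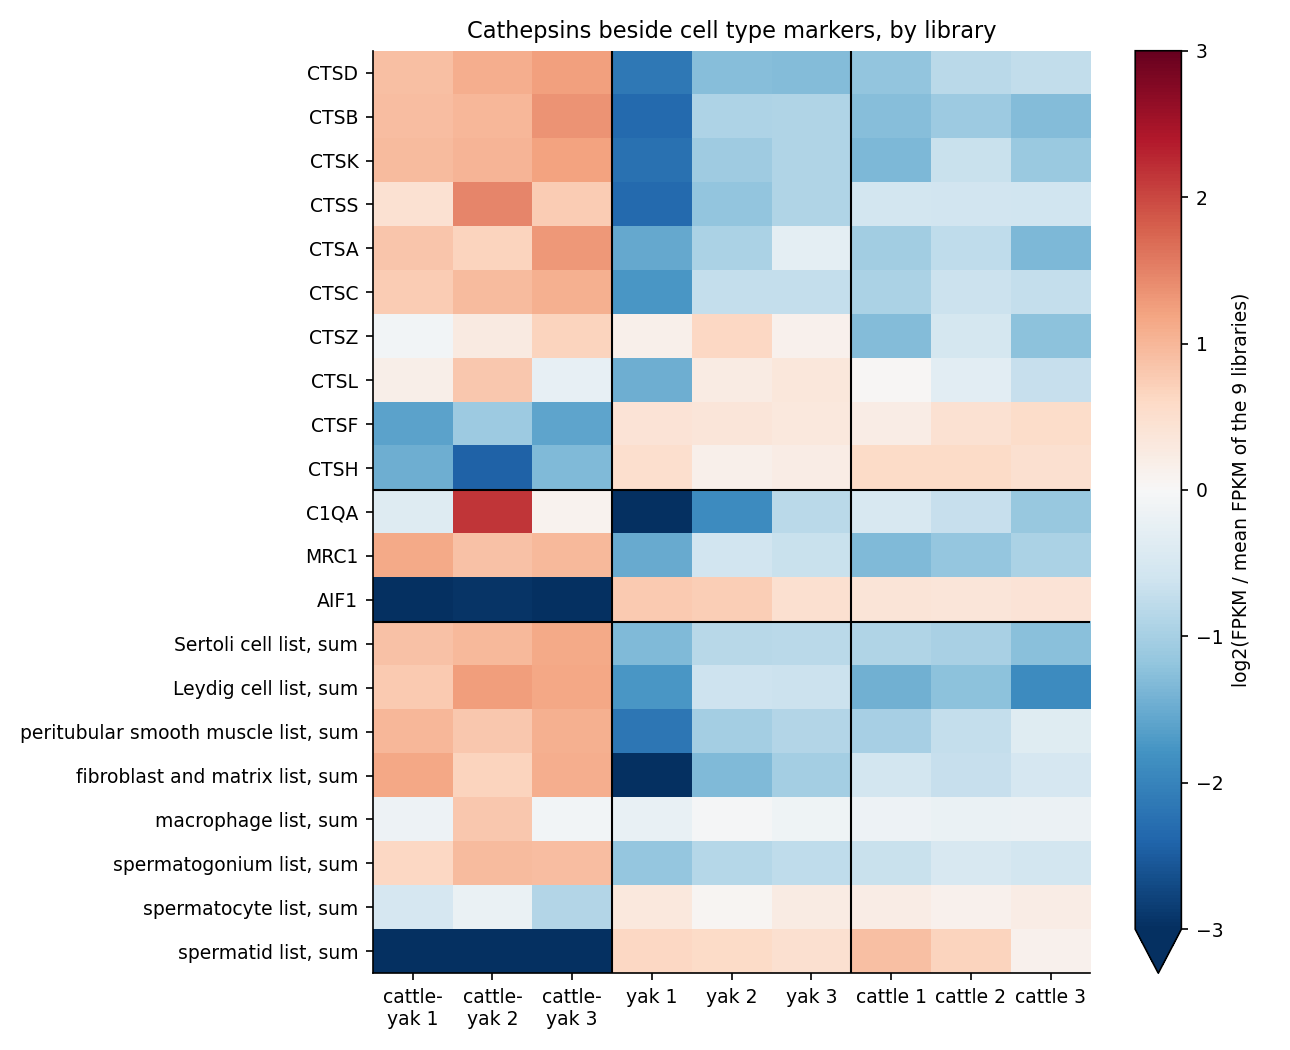
Colour scale of log2(FPKM divided by its mean over the 9 libraries) for cathepsins, 3 macrophage genes and summed marker lists (rows) in each library (columns), cut at −3 and 3. CTSS and C1QA share their highest library, cattle-yak replicate 2, and most cathepsins share their lowest, yak replicate 1, with the Sertoli cell, smooth muscle and fibroblast lists.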

How the data were processed

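Testis RNA from 9 animals was sequenced as directional, paired-end libraries (125 nt reads), per the labels' protocols. The submitters' processing notes list, without roles, the build UMD3.1, used for all 3 groups, and the tools Bowtie, Cufflinks, StringTie 1.3.4, HISAT2 2.0.5 and Trimmomatic. The authors deposited FPKM for 22118 transcripts, and no source used here names the tool behind these values. Groups were taken from the sample titles. FPKM was summed per gene ID, and genes with at least 1 FPKM in at least 3 libraries were tested on log2(FPKM + 1) with limma 3.58.1 (R 4.3.3), with a group term over all 9 libraries, a mean-variance trend and two-sided p-values adjusted by Benjamini-Hochberg over 14091 genes. The code was tested on simulated data. Read depth behind the FPKM is unknown: at most 7.98% of low values shared 1 ratio between libraries, so whole reads were not recovered. None of the 90 cathepsin values was 0, while 93 genes were at 0 in 1 library and above 10 FPKM in another.

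The cathepsins and the gene lists were chosen with earlier results of these data known. The text names all 10 cathepsins, from each partner list the 3 most abundant tested genes and any called opposite to its list against both parents, and, for the Sertoli cell, Leydig cell and macrophage lists, the 3 most abundant; those of the other marker lists are given as sums. One gene that this rule selects is not reported here. Lists are described by counts and medians, without a test. Alternatives were another pseudocount, other filters, 3 other scalings, the most abundant transcript, no trend, fits of 2 groups, a replicate block, and leaving out each library. The RefSeq gene table of cattle (ARS-UCD2.0) served for gene names and for which genes neighbour each other, and no coordinate or sequence is printed. The circRNA table, which numbers circRNAs with no host gene, and 9 small RNA samples were not analysed here.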

Additional observations from a re-analysis of the deposited data

How the results depend on the processing

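Of 567 recomputed fold changes of cathepsins, 549 kept their direction and their side of the threshold, and none of the calls was lost. Many of these could not change direction. The filters, no trend, fits of 2 groups, the replicate block and the most abundant transcript leave the log2 change of a cathepsin as it was. So does leaving out a library of the group not compared, and only the adjusted p can differ there. The numbers called against cattle and against yak did not change by more than 1.5 times under any of the 19 alternatives: leaving out each library in turn gave 9 and 8 each time, with 7 and 6 higher and 2 lower. Between yak and cattle 2 were called, 1 of them lower, under quantile normalisation and with the replicate block, both through CTSD, against 1 called in all and none lower as reported, and leaving out single libraries gave 1. Deviations of same-numbered libraries correlated at −0.172 to 0.226, and those of differently numbered libraries at −0.352 to 0.23. With 3 libraries per group this cannot show whether the replicate numbers pair the animals. The replicate block changed no other cathepsin call. Changes that were not called turned sign under some settings. Median-ratio scaling gave 0.048 for CTSF in yak against cattle, −0.089 for CTSL in cattle-yak against yak and −0.10 for CTSW in cattle-yak against cattle. Equal-sum scaling gave 0.12 for CTSZ in cattle-yak against yak, and the most abundant transcript gave 0.28 for CTSV in yak against cattle. Leaving out single libraries gave ranges in yak against cattle of −0.15 to 0.38 for CTSA, −0.36 to 0.30 for CTSB, −0.36 to 0.042 for CTSC, −0.13 to 0.031 for CTSF, −0.56 to 0.058 for CTSK and −0.065 to 0.29 for CTSL. In cattle-yak against yak the ranges were −0.0078 to 0.35 for CTSL and −0.19 to 0.16 for CTSZ. The cause of these changes was not tested. A filter of 5 FPKM left CTSL untested. Depth is unknown, so the precision of CTSL and other low genes rests on the spread between animals. The fit shared that spread over the 3 groups and drew it towards a trend over all genes tested. Of 2280 counts of list genes called, 194 moved by more than 1.5 times or went to or from 0. Over all genes, 2692 were called between yak and cattle and 1760 without cattle replicate 2.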
